A study of Mus musculus with 16 samples.

Results

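AdAF1, a fibroblast line from a mammary adenoma, was compared with NF2 and NF3, the 2 fibroblast lines from normal mammary gland, on 6 of the series' 16 bead arrays. The members were chosen by label: both AdAF1 cultures (2 arrays) against the 2 cultures each of NF2 and NF3 (4 arrays). All lines came from FVB/N mice, and all were immortalized with the E6 gene of a human papillomavirus (hpvE6), in the normal lines as well as in AdAF1. The adenoma arose in the MMTV-PyMT model, in which a mouse mammary tumour virus promoter, active mainly in mammary epithelium, drives the polyoma middle T oncogene, so the oncogene is not aimed at the fibroblasts themselves. The cells received no treatment, grew in DMEM with FBS on a deformable gel made of collagen I and Matrigel, and gave total RNA after 72 h. The other lines of the series, each with 2 cultures, are HpAF1, from hyperplasia, and the carcinoma lines CAF1, CAF2, CAF3 and CAF4 of the same model. Adenoma is thus represented by 1 line, and a difference from the normal lines cannot be told apart from a property of that line alone. The labels give no age, and nothing in them says whether lines came from separate mice, were cloned, or shared a chip or a labelling day.

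Fibroblasts make and remodel the collagen matrix of a tissue, and in tumours they are known to take on activated states. A myofibroblast state shows smooth muscle actin and contractile proteins and responds to TGF-beta and to matrix stiffness. An inflammatory state secretes chemokines and acute-phase proteins under the transcription factor NF-kappa-B, and an interferon state carries antiviral and antigen-presentation genes. E6 directs the tumour suppressor p53 to degradation, a background that all lines here share.

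Levels are given as normalized log2 intensity, where 1 unit is a factor of 2 in the background-corrected array signal. A probe counted as detected on an array when its detection p against the array's negative controls was under 0.01. Between 7445 and 9600 of 25697 probes were detected on the 4 normal arrays, and 9093 and 7749 on AdAF1 cultures 1 and 2. The number of arrays limits the precision. The SD between the 2 cultures of a line over tested probes was 0.28 in AdAF1, 0.45 in NF2 and 0.53 in NF3. The fibroblast markers Col1a1, Thy1, Vim and Pdgfra were detected on all 6 arrays. Ptprc of leukocytes, Pecam1 of endothelium, Rgs5 of pericytes, Msln of mesothelium and Myod1 of skeletal muscle were detected on 0 of them. Line means of AdAF1 correlated at 0.978 with CAF1, against 0.964 with NF2, 0.954 with NF3 and 0.979 between NF2 and NF3, over the 10453 tested probes, which share arrays and are not independent.

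AdAF1 stood apart from both normal lines at a small set of genes, most of them higher in the adenoma line. A gene was called when AdAF1 differed from NF2 and from NF3 in the same direction, each with an adjusted p under 0.05 in limma with cultures as replicates. The adjusted p printed is the larger of the 2, and the difference is AdAF1 minus the mean of the normal lines, with its standard error (SE). Of 7454 genes tested, 84 (1.13%) were above and 22 (0.295%) below both normal lines. By probe, 105 of 10453 (1%) were above and 32 (0.306%) below. These p-values measure the spread between cultures, which may be technical. A higher level in bulk RNA cannot be told apart between more RNA per cell and more cells that express the gene. Without AdAF1 culture 1 the probe calls fell to 44 above and 6 below, and without culture 2 to 47 and 5. They were 87 and 13 without NF2 culture 1, and 131 and 55 without NF3 culture 2. With only these 6 arrays in the fit, 11 probes were above and 1 below, and with scaling in place of quantile normalization 62 and 17. Of the 53 called genes that the naming rule gave, 19 kept their call when each of the 6 cultures was left out in turn, and these are pointed out as they come. With scaling 38 of the 53 kept their call, and with only the 6 arrays 7 did, which were Saa3, Lrrc15, Greb1, Bnc1, Flrt3, Sema3a and Cxcl10.

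**Figure D1:**
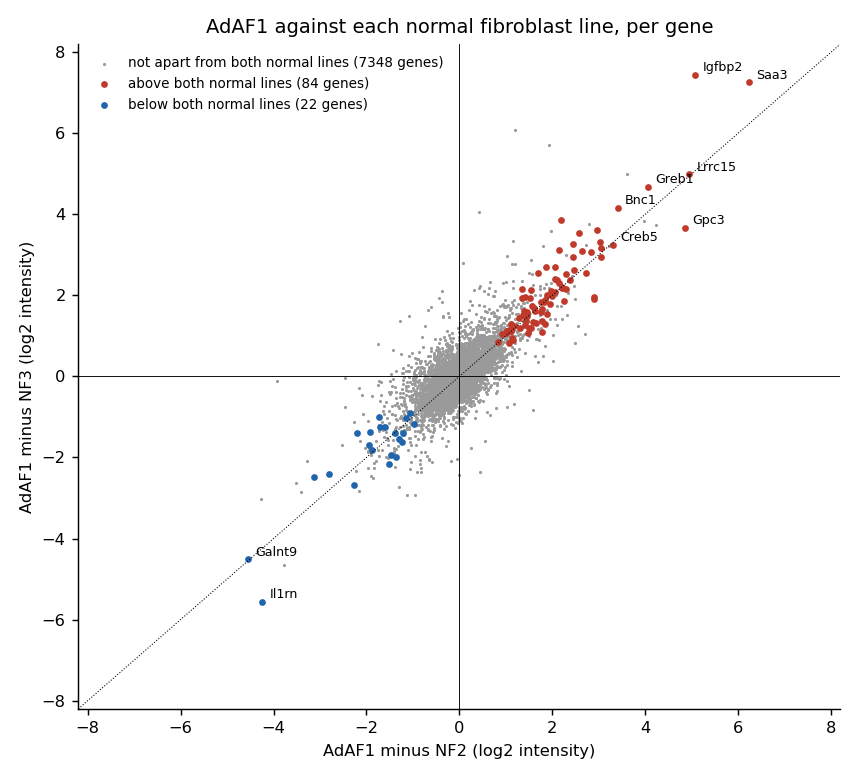
Difference of AdAF1 from NF2 (horizontal) and from NF3 (vertical) in normalized log2 intensity, 1 point per tested gene; red genes were above and blue genes below both normal lines in limma, and the dotted line marks equal differences. Of the red genes, Saa3, Igfbp2, Lrrc15 and Greb1 lie farthest to the upper right, and of the blue genes Il1rn and Galnt9 farthest to the lower left.

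The largest difference from the normal mean was that of Saa3. Saa3, an acute-phase serum amyloid A protein made locally in inflamed tissue, read 14.23 and 13.72 on the AdAF1 arrays. On the normal arrays it read 7.19 and 8.30 in NF2 and 5.71 and 7.75 in NF3. The groups were far from overlapping, and Saa3 was 6.74 higher (SE 0.81, adjusted p = 0.0054). It was detected on 3 of 4 normal arrays. Without AdAF1 culture 1 its adjusted p was 0.0628. Chil1, a secreted chitinase-like glycoprotein of inflamed tissue, read 8.69 and 9.45 in AdAF1 against 6.51 and 6.49 in NF2 and 5.23 and 5.83 in NF3. Both AdAF1 values lay above every normal value, by 3.05 on average (SE 0.23, adjusted p = 0.00041), and the call held without each culture in turn, although 1 normal array detected it. Lcn2, the iron-siderophore carrier lipocalin 2, read 12.72 and 11.60 in AdAF1, 7.83 and 9.28 in NF2, and 5.50 and 8.82 in NF3. The arrays did not overlap, but the normal cultures spread widely, and the difference of 4.30 (SE 1.10) did not pass (adjusted p = 0.207). Saa3 and Chil1 were the 2 called members of 12 tested acute-phase and innate genes, whose median difference was -0.03 as over all genes. The share called higher over all genes was 1.13%. Other members of this list, such as Serpina3n at -0.67 (adjusted p = 0.71) and the haptoglobin gene Hp at -1.22 (adjusted p = 1), did not pass.

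Among CXC chemokines, which draw neutrophils and lymphocytes, 3 of 7 tested members were called higher and 0 lower, with a median difference of 2.70. Above the normal mean were 5 of the 7 (46.9% of all genes), and 2 were below it, the lowest at -1.54. Over all genes tested, 1.13% were called higher and 0.295% lower, and the median difference was -0.03. Cxcl10, a ligand of CXCR3 on T cells, read 7.71 and 8.10 in AdAF1, 4.99 and 4.71 in NF2 and 4.79 and 5.13 in NF3. It was detected on no normal array and was at least 2.74-fold higher (adjusted p = 0.000473). Such a bound sets the AdAF1 mean against the lowest signal that counted as detected on the normal arrays. Cxcl5, a neutrophil chemoattractant, read 7.87 and 7.98 in AdAF1 and between 4.61 and 5.93 on the normal arrays, where it was also undetected, and was at least 2.79-fold higher (adjusted p = 0.00385). Cxcl16, a membrane-bound chemokine and ligand of CXCR6, read 10.03 and 10.61 in AdAF1 and a narrow 7.99 to 8.28 in the normal lines. It was 2.23 higher (SE 0.20, adjusted p = 0.00041). All 3 kept their call without each culture in turn. Cxcl1, a neutrophil chemoattractant, read 14.03 and 13.73 in AdAF1, 10.22 and 11.98 in NF2, and 11.47 and 8.78 in NF3. Its difference of 3.27 (SE 0.83) did not pass (adjusted p = 0.199). Cxcl14, singled out after its values were seen, split the normal lines, at 10.49 and 9.08 in NF2 and 5.00 and 4.79 in NF3, and AdAF1 read 10.54 and 11.42. AdAF1 thus exceeded NF3 by 6.08 and NF2 by 1.19, and it was not called (adjusted p = 0.181).

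Of 9 tested CC chemokines, 1 was called higher and 0 lower (1.13% and 0.295% over all genes). The called gene was Ccl2, which draws monocytes. It read 11.00 and 10.46 in AdAF1, 8.47 and 8.69 in NF2 and 7.20 and 8.02 in NF3, a difference of 2.64 (SE 0.38, adjusted p = 0.0318). The arrays did not overlap, but the call was lost when either AdAF1 or either NF2 culture was left out, with adjusted p up to 0.206. Its neighbours in function were also above the normal mean without passing: Ccl7 at 1.84 (adjusted p = 0.0578), Ccl5 at 1.48 (adjusted p = 0.086) and the eosinophil chemokine Ccl11 at 2.34 (adjusted p = 0.209). In all, 8 of 9 CC chemokines were above the normal mean, against 46.9% of all genes.

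In the group of IL-6, IL-1 and prostaglandin genes, 1 of 10 was called higher and 1 lower (1.13% and 0.295% over all genes). Lif, a cytokine of the IL-6 family, read 6.61 and 6.80 in AdAF1 and was undetected on the normal arrays at 4.85 to 5.37, at least 1.19-fold higher (adjusted p = 0.00429, and 0.0578 without AdAF1 culture 2). Il1rn, the antagonist that keeps IL-1 from its receptor, went the other way. It read 10.41 and 8.12 in NF2, 11.17 and 10.01 in NF3, and 4.88 and 5.18 in AdAF1, where neither array detected it. Il1rn was at least 12.3-fold lower (adjusted p = 0.00912), the largest bound among the lower genes, although its adjusted p was up to 0.0848 with an AdAF1 culture left out. Il6 itself was detected on none of the 6 arrays, so no fold is given.

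Genes of NF-kappa-B sensing and feedback were called higher in 5 of 17 tested members (1.13% over all genes) and lower in 0 (0.295%). Their median difference was 0.82. Several are inhibitors that NF-kappa-B itself switches on. Tnfaip3, a ubiquitin-editing brake on the pathway, read 7.20 and 6.17 in AdAF1 and 4.55 to 4.84 on the normal arrays. It was detected in AdAF1 culture 1 and on no normal array, at least 1.18-fold higher (adjusted p = 0.00282), and kept its call without each culture in turn. Without culture 1, however, that call set an undetected AdAF1 value against undetected normal values. Nfkbiz, a nuclear co-regulator, read 10.72 and 11.06 against 9.60 and 9.10 in NF2 and 8.77 and 8.73 in NF3, a difference of 1.84 (SE 0.21, adjusted p = 0.00709). Nfkbia, the cytoplasmic inhibitor I-kappa-B-alpha, read 10.57 and 10.07 against 8.32 and 9.07 in NF2 and 8.91 and 8.49 in NF3, a difference of 1.62 (SE 0.30, adjusted p = 0.0397). Tlr2, a receptor for bacterial lipoproteins, read 9.31 and 9.22 against 7.91 and 6.85 in NF2 and 7.72 and 6.78 in NF3, a difference of 1.95 (SE 0.33, adjusted p = 0.029). Relb, a subunit of the non-canonical pathway, named after its values were seen as the last of the 5, read 7.80 and 7.83 against 6.27 to 6.70, a difference of 1.34 (SE 0.19, adjusted p = 0.00836, and 0.0629 with an AdAF1 culture left out). In each of these genes both AdAF1 arrays lay above all 4 normal arrays, as 10 of the 17 members did; over all genes the share was 11.6%. The calls of Nfkbia and Tlr2 were lost without either AdAF1 culture and without 2 of the normal cultures, with adjusted p up to 0.245 and 0.168, and that of Nfkbiz without AdAF1 culture 2 (adjusted p = 0.0885). Rela, the main DNA-binding subunit, differed by -0.10 and the adaptor Myd88 by -0.39, and neither passed (adjusted p = 0.92 and 0.66).

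Interferon-response genes were above the normal mean in all 20 tested members, and 15 of 20 did not overlap between AdAF1 and normal arrays, but 3 passed the test. Over all genes tested these shares were 46.9% above the normal mean, 11.6% with AdAF1 above all normal arrays and 1.13% called higher. Their median difference was 1.48, the lowest 0.16. Ifit3, an antiviral protein that dampens translation of foreign RNA, read 10.82 and 11.63 in AdAF1, 9.13 and 7.41 in NF2, and 6.90 and 8.32 in NF3. It was 3.28 higher (SE 0.57, adjusted p = 0.0455), a call that did not hold without either AdAF1 culture or NF2 culture 2 (adjusted p up to 0.31). Rsad2, the antiviral enzyme viperin, read 6.96 and 7.73 in AdAF1 and 4.75 to 5.16 on the normal arrays, where it was undetected. It was at least 1.86-fold higher (adjusted p = 0.00041) and kept its call without each culture in turn. Mx2, a dynamin-like antiviral GTPase, read 6.95 and 7.84 against 6.00 and 4.67 in NF2 and 5.57 and 5.05 in NF3, a difference of 2.08 (SE 0.37, adjusted p = 0.0327), with adjusted p up to 0.282 when a culture was left out.

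The 2 largest differences of the interferon group did not pass, and in both genes the normal cultures were widely spread. Isg15, a ubiquitin-like protein attached during the antiviral response, read 10.91 and 11.39 in AdAF1, but 8.77 and 5.58 in NF2 and 6.62 and 8.02 in NF3. Its difference of 3.90 (SE 0.82) did not pass (adjusted p = 0.0616). Usp18, the protease that removes Isg15, read 10.85 and 11.54 against 8.59 and 5.34 in NF2 and 6.04 and 8.87 in NF3 (3.99, SE 0.96, adjusted p = 0.0959). Its 2 other probes did pass, at 3.31 (adjusted p = 0.0219) and 3.64 (adjusted p = 0.0436). In both genes culture 1 of NF2 and culture 2 of NF3 were the higher normal arrays, at levels still under AdAF1. Isg15 and Usp18 were singled out after their values were seen. Outside the list, Plscr1, a phospholipid scramblase that interferon induces, was steady in these lines, at 11.04 and 11.12 in AdAF1 and 8.28 to 8.85 on the normal arrays. It was 2.41 higher (SE 0.18, adjusted p = 0.000369) and kept its call without each culture in turn. Apol9b, an apolipoprotein L family member, read 8.12 and 8.92 against 6.73 and 5.43 in NF2 and 5.33 and 5.18 in NF3, a difference of 2.85 (SE 0.40, adjusted p = 0.0202), lost without either AdAF1 culture or NF2 culture 2 (adjusted p up to 0.217).

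Class I antigen presentation genes showed smaller differences. H2-T10, a non-classical class I gene outside the list, read 12.51 and 12.87 in AdAF1 and 10.26 to 10.61 on the normal arrays, a difference of 2.23 (SE 0.22, adjusted p = 0.000962) that held without each culture in turn. H2-T23, the gene of the non-classical molecule Qa-1, was the 1 called of 12 list members, against 1.13% of all genes called higher. Its probe with the higher mean over all 16 arrays read 7.18 and 7.43 in AdAF1, 5.86 and 5.63 in NF2, and 4.89 and 6.22 in NF3, a difference of 1.65 (SE 0.30, adjusted p = 0.0475). Its other probe, the brighter of the 2 on 3 of the 4 normal arrays, differed by -0.39 (adjusted p = 0.978). These genes belong to a family of near-identical copies, so a probe may read more than its named gene. The light chain of class I molecules, B2m, differed by 0.47 and H2-K1 by 0.36, and neither passed (adjusted p = 0.53 and 0.64), although 11 of the 12 members were above the normal mean.

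The promoters of 4 of these genes are shown because genes of these lists were called higher together, with motif matches in capitals. The planned choice was called genes of the inflammation lists, which Saa3, Chil1 and Cxcl10 are. Ifit3, of the interferon list, lies outside that plan, and Il1rn and Cxcl16, also called inflammation genes, are not shown. The promoters are RefSeq sequences of GRCm38.p6 from 250 bases before to 50 after the start of the gene, written 5′ to 3′ along the gene. The table had entries for 6067 of the 7454 tested genes and none for Cxcl5 or Ccl2. The first motif searched, GGG followed by any 2 bases and TTTCC on both strands, a form of the NF-kappa-B site, was in none of the promoters shown. A broader kappa-B consensus, which overlaps the first form, and GAAA followed by any 2 bases and GAAA, a form of the interferon-stimulated response element (ISRE), were searched on both strands after the values were seen. Saa3 lies at chr7:46715627-46715926 on the minus strand, Chil1 at chr1:134181906-134182205 on the plus strand, Cxcl10 at chr5:92348840-92349139 on the minus strand and Ifit3 at chr19:34583279-34583578 on the plus strand.
Saa3: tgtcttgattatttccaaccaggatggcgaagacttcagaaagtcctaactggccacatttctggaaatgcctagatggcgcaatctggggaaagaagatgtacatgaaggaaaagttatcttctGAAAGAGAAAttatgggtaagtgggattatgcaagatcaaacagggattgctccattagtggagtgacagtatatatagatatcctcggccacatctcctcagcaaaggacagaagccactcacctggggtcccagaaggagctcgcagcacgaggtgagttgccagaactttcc
Chil1: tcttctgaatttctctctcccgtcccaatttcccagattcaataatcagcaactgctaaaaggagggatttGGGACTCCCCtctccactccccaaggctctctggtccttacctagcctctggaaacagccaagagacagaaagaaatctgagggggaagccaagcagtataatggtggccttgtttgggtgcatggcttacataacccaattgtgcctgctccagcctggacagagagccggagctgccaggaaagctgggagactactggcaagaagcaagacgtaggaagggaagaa
Cxcl10: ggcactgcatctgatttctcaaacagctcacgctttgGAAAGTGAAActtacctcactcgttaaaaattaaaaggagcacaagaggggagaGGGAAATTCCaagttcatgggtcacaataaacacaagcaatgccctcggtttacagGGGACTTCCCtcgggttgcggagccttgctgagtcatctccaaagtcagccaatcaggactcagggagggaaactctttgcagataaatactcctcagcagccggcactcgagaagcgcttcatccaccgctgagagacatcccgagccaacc
Ifit3: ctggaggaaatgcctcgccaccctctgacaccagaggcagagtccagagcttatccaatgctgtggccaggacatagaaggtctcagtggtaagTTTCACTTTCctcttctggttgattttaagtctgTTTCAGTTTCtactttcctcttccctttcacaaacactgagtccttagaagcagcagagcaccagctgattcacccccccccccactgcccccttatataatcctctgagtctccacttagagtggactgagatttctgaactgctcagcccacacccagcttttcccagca
The capitals mark the ISRE form in Saa3, the kappa-B consensus in Chil1, both in Cxcl10 and the ISRE form read on the reverse strand at 2 places in Ifit3. In Cxcl10 the matches GGGAAATTCC and GGGACTTCCC lay at -159 and -103 from the start of the gene, and GAAAGTGAAA at -213. The kappa-B consensus was in 5.14% of all 27025 promoters, in 6.1% of those of tested genes, in 8 of 65 genes called higher and in 0 of 17 called lower. The ISRE form was in 3.99% of all promoters and 3.74% of tested genes, in 9 of 65 genes called higher, in 2 of 17 called lower and in 10 of the 16 interferon-list genes with an entry. The first motif was in 1.89% of all promoters, 2 of 65 called higher and 1 of 17 called lower. A match in these letters is a description and was not tested.

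Genes of the insulin-like growth factor (IGF) axis were called higher in 2 of 13 tested members (1.13% over all genes) and lower in 0 (0.295%). AdAF1 lay above all normal arrays in 3 of the 13 and below them in 1, against 11.6% and 11.1% of all genes. Igfbp2, a secreted IGF-binding protein, read 12.09 and 12.21 in AdAF1, 5.83 and 8.32 in NF2, and 4.68 and 4.73 in NF3. It was detected on both NF2 arrays and on neither NF3 array. It was 6.26 higher (SE 0.51, adjusted p = 0.000944), and a second probe was called as well. Gpc3, the heparan sulphate proteoglycan glypican-3, read 9.86 and 9.87 in AdAF1, against 5.04 and 4.96 in NF2, and 4.81 and 7.58 in NF3, where culture 2 was the 1 normal array to detect it. The difference was 4.27 (SE 0.52, adjusted p = 0.00684), and its adjusted p reached 0.0532 without either AdAF1 culture. Igfbp2 kept its call without each culture in turn. In the opposite direction, the 2 probes of Igfbp4, an IGF-binding protein that restrains IGF action, differed by -3.64 (SE 0.70) and -3.66 (SE 0.65), of which the dimmer passed (adjusted p = 0.0652 and 0.0449). By its brighter probe Igfbp4 read 7.61 and 7.74 in AdAF1 and 10.36 to 13.18 on the normal arrays, and it was singled out after its values were seen. Igf1 differed by -0.23 and the receptor gene Igf1r by 0.99, and neither passed (adjusted p = 0.95 and 0.33).

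Lrrc15, a leucine-rich repeat membrane protein known from myofibroblasts of tumours, read 10.16 and 10.53 in AdAF1, 5.80 and 5.00 in NF2, and 5.46 and 5.26 in NF3, and was detected on 1 normal array. Lrrc15 was 4.97 higher (SE 0.32, adjusted p = 9.8e-05), and its call held without each culture in turn, with an adjusted p of at most 0.00172.

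Several transcriptional regulators were undetected in the normal lines and detected on both AdAF1 arrays. Greb1, a co-regulator known as a target of oestrogen receptor, read 9.51 and 9.83 in AdAF1 and 4.73 to 5.93 on the normal arrays, at least 9.34-fold higher (adjusted p = 0.00041). Pgr, the progesterone receptor gene, singled out after its values were seen, read 6.99 and 7.01 against 4.71 to 4.96, at least 1.47-fold higher (adjusted p = 0.00041, and at most 0.00886 with a culture left out). Neither of the 2 probes for Esr1, the oestrogen receptor gene, was detected on any array. Bnc1, a zinc finger transcription factor of epithelial and mesothelial cells, read 8.68 and 8.99 against 4.67 to 5.78, at least 5.24-fold higher (adjusted p = 9.8e-05). Creb5, a CREB-family transcription factor, read 8.36 and 8.45 against 4.62 to 5.59, at least 3.88-fold higher (adjusted p = 0.00096). None of these genes was detected on a normal array.

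Further named genes are taken here in an order chosen after their values were seen. Flrt3, an adhesion protein that binds FGF receptors and latrophilins, read 8.59 and 8.45 in AdAF1 and 5.16 to 5.85 on the normal arrays, at least 4.21-fold higher (adjusted p = 0.00114). Sema3a, a secreted semaphorin that repels axons, read 8.58 and 8.24 against 5.20 to 6.00, at least 3.90-fold higher (adjusted p = 0.00041). Plxna2, a plexin that transmits semaphorin signals, was lower: 8.97 and 9.49 in NF2, 9.07 and 8.59 in NF3, and 6.83 and 6.00 in AdAF1. The difference of Plxna2 was -2.61 (SE 0.32, adjusted p = 0.00427, and 0.0515 without AdAF1 culture 2). Sema6d, a transmembrane semaphorin detected on 2 normal arrays, was at least 1.12-fold lower (adjusted p = 0.0195), a call lost without either AdAF1 culture or NF3 culture 2 (adjusted p up to 0.158). Acsl6, a long-chain acyl-CoA synthetase, read 8.85 and 8.05 against 5.12 to 5.68, at least 4.00-fold higher (adjusted p = 0.00041). Greb1, Bnc1, Creb5, Flrt3, Sema3a and Acsl6 kept their calls without each culture in turn.

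The receptor genes Npy1r, Agtr1a and Eng were higher in AdAF1. Npy1r, a receptor of neuropeptide Y, read 8.57 and 9.07 in AdAF1, 6.38 and 6.89 in NF2, and 5.20 and 4.74 in NF3, a difference of 3.01 (SE 0.23, adjusted p = 0.00119) that held without each culture in turn. Agtr1a, a receptor of angiotensin II, read 8.46 and 7.54 against 5.64 to 5.95 on the normal arrays, a difference of 2.20 (SE 0.42). Its adjusted p of 0.0436 lay close to the threshold, and the call was lost whichever culture was left out (adjusted p 0.0668 to 0.275). Eng, a TGF-beta co-receptor best known from endothelium, read 8.64 and 8.37 against 5.90 to 6.54, a difference of 2.23 (SE 0.17, adjusted p = 0.00041) that held without each culture in turn.

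Contractile and YAP genes, which mark force-bearing fibroblasts, were mostly above the normal mean with few calls. Of 21 tested targets of serum response factor (SRF), the regulator of smooth muscle genes, 1 was called (4.76%). Above the normal mean were 17, with a median of 0.45. Over all genes, 1.13% were called higher and 46.9% were above the normal mean. Actg2, a smooth muscle actin, read 11.15 and 11.23 in AdAF1, 7.39 and 9.33 in NF2, and 8.48 and 7.75 in NF3, a difference of 2.95 (SE 0.51, adjusted p = 0.0331). Its call did not hold without either AdAF1 culture, NF2 culture 1 or NF3 culture 2 (adjusted p up to 0.209). Acta2, the smooth muscle actin used to define myofibroblasts, was near the top of the scale everywhere, at 15.77 and 15.84 in AdAF1 and 14.00 to 15.71 on the normal arrays. Its difference of 0.75 (SE 0.36) did not pass (adjusted p = 0.614), nor did those of its 3 dimmer probes, from 1.34 to 1.77 (adjusted p from 0.237 to 0.333). Tagln, an actin-binding protein of smooth muscle, differed by 1.98 (adjusted p = 0.0997). Mylk, the kinase of myosin light chain, was below the normal mean by both probes, -1.78 (adjusted p = 0.106) and -2.10, of which the second passed (adjusted p = 0.0436); it was singled out after its values were seen.

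None of 16 tested YAP/TAZ targets was called, 11 were above the normal mean, and their median was 0.63. Over all genes, the shares were 1.13% called higher and 46.9% above the normal mean. Ccn1, a matricellular protein, read 11.27 and 11.73 in AdAF1 against 10.31 and 9.99 in NF2 and 10.56 and 8.68 in NF3 (1.62, SE 0.43, adjusted p = 0.22). Ccn2, connective tissue growth factor, overlapped between groups, at 15.13 and 14.93 against 13.86 to 15.19 (0.58, SE 0.21, adjusted p = 0.841). Ankrd1, a nuclear ankyrin repeat protein, read 11.80 and 11.53 in AdAF1 and 10.17 to 10.64 on 3 normal arrays, but 6.46 on NF3 culture 2 (2.25, SE 0.76, adjusted p = 0.614). Cdc42ep3, an effector of the GTPase Cdc42 that organizes septins and actin, read 10.39 and 10.14 against 8.94 and 7.96 in NF2 and 9.54 and 6.62 in NF3 (2.00, SE 0.59, adjusted p = 0.238). It belongs to a separate list of Cdc42 effectors and septins. Of the 10 tested there, 4 were above the normal mean and 0 were called, with a median of -0.15. Without NF3 culture 1, which lies nearest to AdAF1 in both Ccn1 and Cdc42ep3, these 2 genes passed. AdAF1 lay above all normal arrays in Ccn1, Ankrd1 and Cdc42ep3, a position that 11.6% of all genes share.

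Of 15 tested genes of ETS factors and MAPK feedback, 2 were called higher and 0 lower, and 9 did not overlap, against 1.13% and 11.6% over all genes. Ier3, an early response gene of growth factors and NF-kappa-B, read 12.57 and 12.55 in AdAF1, 10.29 and 10.61 in NF2, and 10.72 and 9.65 in NF3, a difference of 2.24 (SE 0.37, adjusted p = 0.0303). Etv4, an ETS transcription factor of FGF signalling, read 8.13 and 8.36 against 6.40 to 7.33, a difference of 1.49 (SE 0.24, adjusted p = 0.0302). Both calls were lost without either AdAF1 culture or NF2 culture 1, and that of Ier3 also without NF2 culture 2 or NF3 culture 2, with adjusted p up to 0.186 for Ier3 and 0.224 for Etv4. In matrix proteolysis, Mmp10, the protease stromelysin 2, was the 1 called of 15 tested proteases, against 1.13% of all genes called higher. It read 8.28 and 8.03 in AdAF1, was undetected on the normal arrays at 5.40 to 6.44, and was at least 3.26-fold higher (adjusted p = 0.0442, and up to 0.232 with a culture left out). Mmp3, stromelysin 1, read 13.42 and 12.62 in AdAF1 and 11.24 and 10.97 in NF2, but 6.15 and 8.49 in NF3. Its average difference of 3.81 (SE 0.67) did not pass against NF2 (adjusted p = 0.272).

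**Figure D2:**
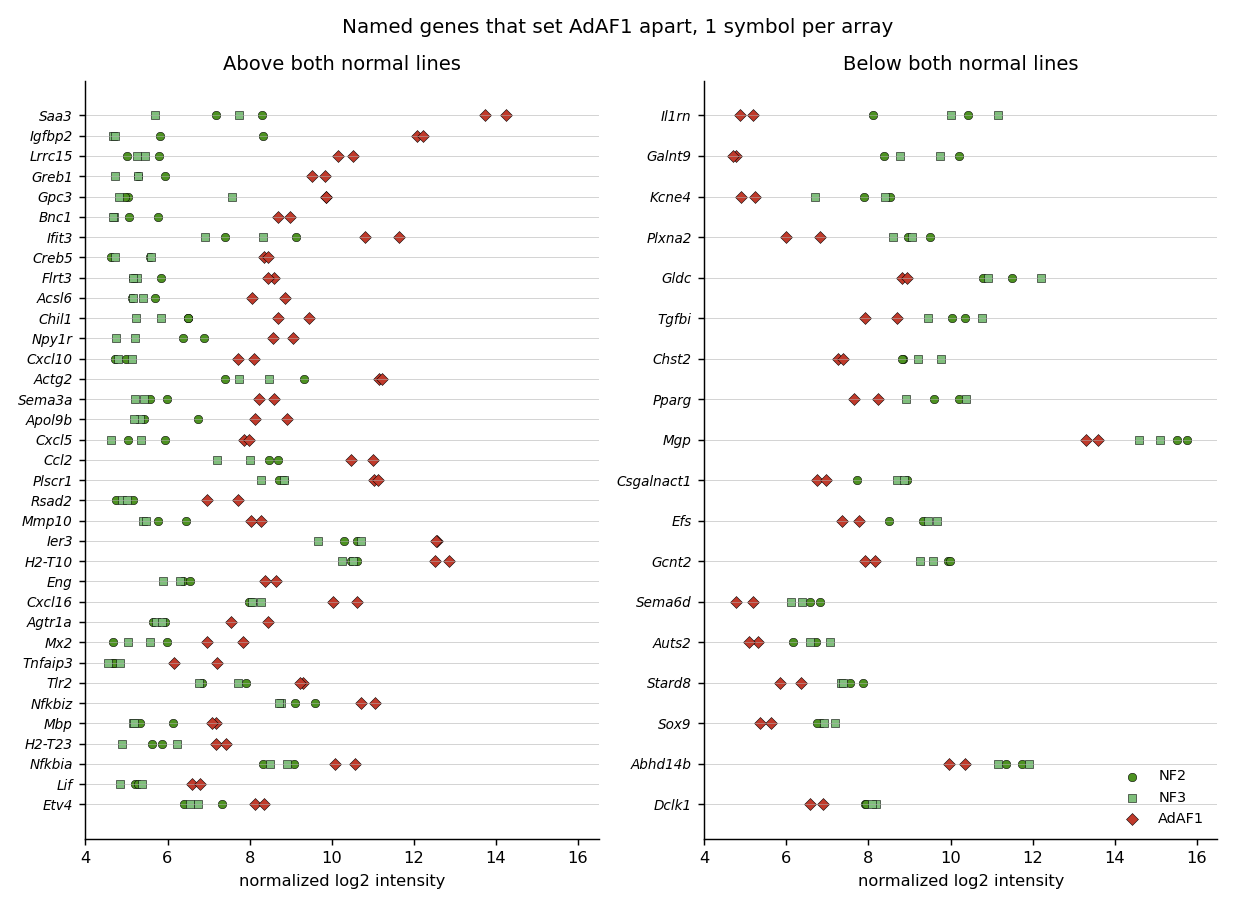
Normalized log2 intensity of the named genes called above (left) and below (right) both normal lines, ordered by difference, with 1 symbol for each of the 6 arrays (circles NF2, squares NF3, diamonds AdAF1). The 2 AdAF1 symbols lie clear of all 4 normal symbols in every row, while the normal symbols of Saa3, Ifit3 or Il1rn are widely spread.

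Genes below both normal lines were fewer and included glycan-modifying enzymes and regulators of differentiation. Galnt9, an enzyme that starts O-linked glycans, read 10.20 and 8.38 in NF2, 8.76 and 9.74 in NF3 and 4.78 and 4.69 in AdAF1, where it was undetected. It was at least 7.77-fold lower (adjusted p = 0.000939) and was the 1 lower named gene to keep its call without each culture in turn. Further enzymes of glycans, grouped here after their values were seen, were also called: Chst2, a sulphotransferase, at -1.84 (SE 0.21), Csgalnact1, which starts chondroitin chains, at -1.70 (SE 0.28), and Gcnt2, which branches glycans, at -1.64 (SE 0.20). Their adjusted p were 0.00912, 0.0436 and 0.00927, and rose to 0.0848, 0.233 and 0.0884 with a culture left out. Gldc, the glycine decarboxylase of the mitochondrial glycine cleavage system, read 11.48 and 10.80 in NF2, 10.91 and 12.20 in NF3 and 8.81 and 8.93 in AdAF1, with no overlap. Gldc was lower by both tested probes, at -2.48 (SE 0.33, adjusted p = 0.0112) and -2.29 (SE 0.29, adjusted p = 0.0112), and its adjusted p was up to 0.0869 with a culture left out.

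Pparg, the master regulator of fat cells, read 9.59 and 10.21 in NF2, 8.91 and 10.38 in NF3, and 8.24 and 7.65 in AdAF1. It was the 1 called of 11 adipogenic genes (-1.82, SE 0.35, adjusted p = 0.0414), with Cebpa at -1.52 (adjusted p = 0.071) not passing. Over all genes, 0.295% were called lower. A dimmer second probe of Pparg, undetected in AdAF1 and detected on 1 normal array, differed by -0.77 and did not pass (adjusted p = 0.311). Tgfbi, a matrix protein named for its induction by TGF-beta, read 10.34 and 10.02 in NF2, 9.45 and 10.77 in NF3 and 7.92 and 8.69 in AdAF1 (-1.84, SE 0.33, adjusted p = 0.0289), the 1 called of 22 TGF-beta and BMP genes. A dimmer second probe of Tgfbi differed by -1.36 (SE 0.32) and did not pass (adjusted p = 0.0949). Each call stood without 1 of the 6 cultures only, NF3 culture 1, and reached an adjusted p of 0.28 for Pparg and 0.215 for Tgfbi. Mgp, an inhibitor of calcification in soft tissue, remained abundant but was lower, at 13.29 and 13.60 in AdAF1 against 15.51 and 15.77 in NF2 and 14.60 and 15.09 in NF3 (-1.80, SE 0.19, adjusted p = 0.00499, and 0.06 without AdAF1 culture 1). Sox9, a transcription factor of cartilage and progenitor cells, was undetected in AdAF1 and at least 1.53-fold lower (adjusted p = 0.0111, and up to 0.12 with a culture left out).

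The remaining named lower genes covered several functions. Kcne4, a potassium channel subunit, was at least 2.97-fold lower (adjusted p = 0.0276) and Auts2, a neurodevelopmental regulator of transcription, at least 1.25-fold lower (adjusted p = 0.0475). Abhd14b, a hydrolase, differed by -1.39 (SE 0.24), Efs, a docking protein of Src kinases, by -1.68 (SE 0.23), Stard8, a START-domain protein, by -1.43 (SE 0.22) and Dclk1, a microtubule-associated kinase, by -1.31 (SE 0.21). Their adjusted p ranged from 0.0185 for Stard8 to 0.0267 for Dclk1. All 6 calls were lost with at least 1 culture left out, where adjusted p reached 0.288 for Auts2, 0.227 for Efs and 0.226 for Dclk1. Ptn, the growth factor pleiotrophin, singled out after its values were seen, had a difference of -4.21 (SE 0.82). It did not pass (adjusted p = 0.0784), with 13.57 and 10.39 in NF2, 14.32 and 11.41 in NF3 and 8.56 and 7.87 in AdAF1.

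None of 20 tested genes of fibrillar collagen and matrix was called, against 1.13% called higher and 0.295% called lower over all genes. Their differences went both ways, from -1.55 to 2.00 with a median of -0.11, a sign that changed when some cultures were left out. AdAF1 lay above all normal arrays in 6 of the 20 and below them in 2, against 11.6% and 11.1% of all genes. Fmod and Dcn, proteoglycans that bind collagen fibrils, were singled out after their values were seen, at 2.00 (SE 0.54, adjusted p = 0.507) and 1.88 (SE 0.44, adjusted p = 0.313). Col1a1, the alpha 1 chain of collagen I, overlapped fully, at 11.18 and 11.91 in AdAF1 and 10.56 to 12.08 on the normal arrays (0.28, SE 0.42, adjusted p = 0.884). Col3a1, the collagen III chain, read 7.06 and 7.92 in AdAF1 against 7.96 to 10.26 (-1.55, SE 0.54, adjusted p = 0.25). Among general fibroblast markers, Vim of intermediate filaments differed by -0.70 (adjusted p = 0.193), the PDGF receptors Pdgfra by 0.65 (adjusted p = 0.678) and Pdgfrb by -0.22 (adjusted p = 0.882), and the calcium-binding protein S100a4 by -0.21 (adjusted p = 0.947). None passed, and of these, Vim alone had no overlap. The probe for Fap was detected on 0 arrays, and Mki67 was not analysed here.

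The ephrin receptor Epha3 read 7.25 and 6.97 in AdAF1 and 7.74 to 8.82 in the normal lines (-0.99, SE 0.34, adjusted p = 0.379). Dkk3, a secreted member of the Dickkopf family, read 10.34 and 10.38 against 8.72 to 8.86 on 3 normal arrays and 6.93 on NF3 culture 1 (2.05, SE 0.46, adjusted p = 0.187). Both had AdAF1 outside the normal range without passing. Rspo3, an amplifier of Wnt signals, was undetected in AdAF1 and on 2 of 4 normal arrays, and did not pass (adjusted p = 0.51).

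Proliferation genes differed from the normal mean by -0.47 to 0.35, with a median of -0.15, and 14 of 20 were below it. Of these 20, 0 were called. Over all genes tested, 1.13% were called higher, 0.295% were called lower and 46.9% were above the normal mean. Cdkn1a, a p53 target that halts the cell cycle, read 11.91 and 11.72 in AdAF1 and a tight 12.14 to 12.30 on the normal arrays (-0.40, SE 0.18, adjusted p = 0.415), while its 2 other probes differed by 0.09 and 0.21. HOX genes, which record position along the body, were below the normal mean in 12 of 16 with 0 calls. Hoxa5 read 9.14 and 8.95 in AdAF1 against 9.46 to 10.94 (-1.25, SE 0.31, adjusted p = 0.244), and Hoxc10 stood above at 1.90 (adjusted p = 0.18). Among the targets of NRF2, the regulator of the oxidative stress response, 12 of 14 were above the normal mean with a median of 0.77, and 0 passed. That median ranged from 0.10 to 1.20 with a culture left out. Cholesterol synthesis genes, below the normal mean in 11 of 14, also gave 0 calls, and their median of -0.17 changed sign in some runs with a culture left out.

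**Figure D3:**
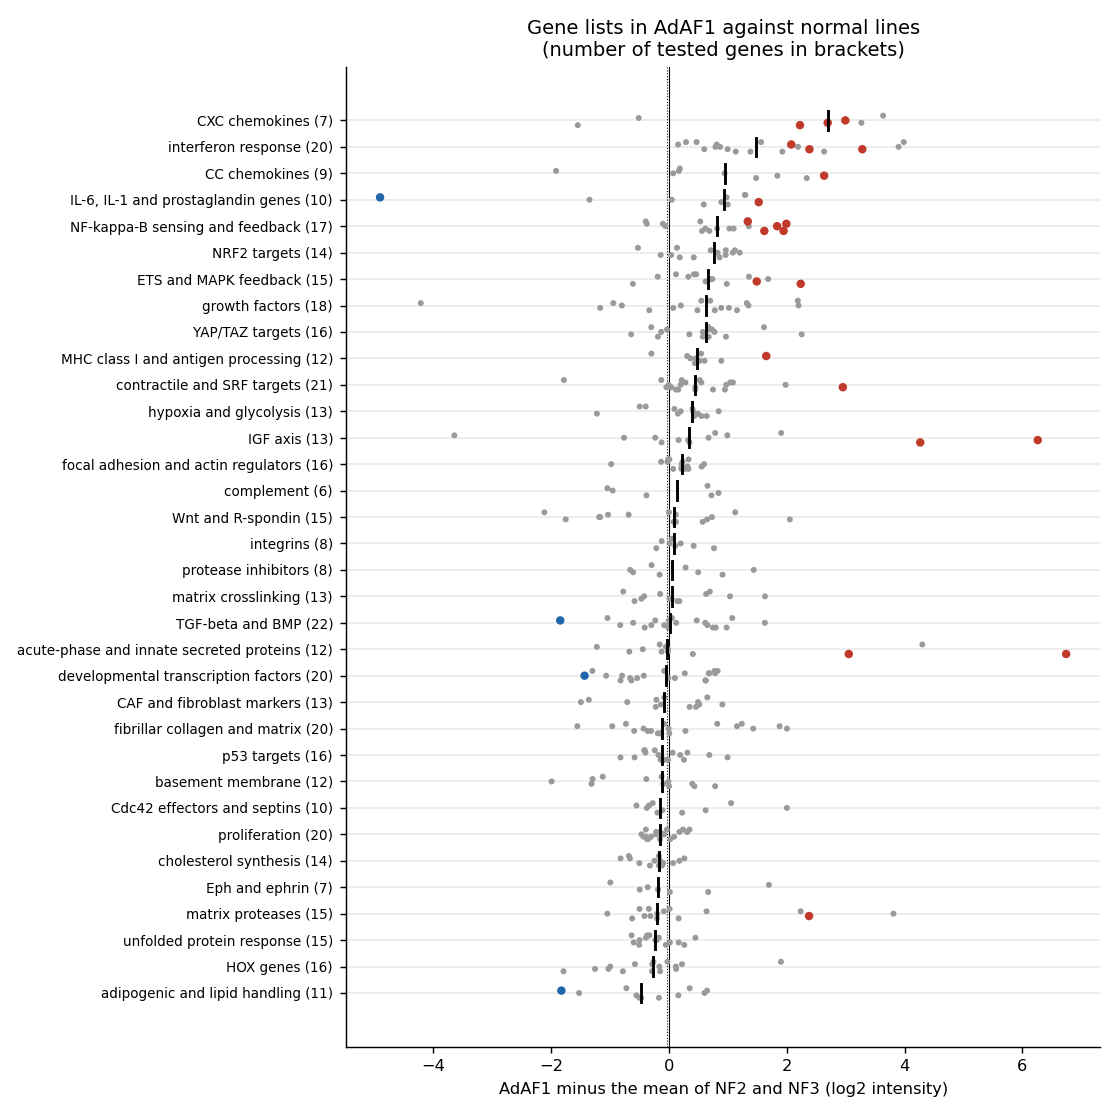
Difference of AdAF1 from the mean of NF2 and NF3 in normalized log2 intensity for the tested members of each gene list, with red for genes called above, blue for genes called below and grey for genes not called; the black bar is the list median and the dotted line the median of all tested genes (-0.03). Among lists with at least 5 tested members, CXC chemokines and interferon-response genes have the highest medians, at 2.70 and 1.48.

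Of the 84 higher genes, 25 belonged to any list and 16 to an inflammatory or interferon list, against 4 and 1 of the 22 lower genes. Over all genes tested, 6.53% belonged to any list and 1.25% to an inflammatory or interferon list. The lists were chosen with earlier results of these data known. In 32 of the 84 higher and 6 of the 22 lower genes the dimmer group was undetected, so their folds are bounds.

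Some called genes are markers of other cell types. Eng was the 1 called of 3 tested endothelial markers, Bnc1 of 4 mesothelial markers, and Mbp, a myelin protein, of 2 Schwann and neural crest markers. Over all genes, 1.13% were called higher. Below the normal mean were 2 of the 3 endothelial, 2 of the 4 mesothelial and 0 of the 2 Schwann and neural crest markers. Mbp read 7.19 and 7.09 in AdAF1 and 5.16 to 6.13 on the normal arrays (1.69, SE 0.26, adjusted p = 0.0414, and up to 0.207 with a culture left out). The summed linear intensity of the endothelial list was 715 to 771 in AdAF1 and 504 to 523 on the normal arrays, and that of the mesothelial list 754 to 970 against 495 to 613. The skeletal muscle list summed to 462 to 526 against 298 to 389, the Schwann and neural crest list to 257 on both AdAF1 arrays against 144 to 193, and mammary epithelium to 417 to 430 against 365 to 400. Few list members were detected on any AdAF1 and any normal array, 2 and 3 of 11 endothelial and 2 and 2 of 10 mesothelial genes. The numbers were 1 and 1 of 10 skeletal muscle, 1 and 1 of 5 Schwann and neural crest, and 1 and 0 of 13 epithelial genes. Most members thus added signal at background to these sums. Without its 1 called gene, a sum added after these values were seen, the endothelial list gave 373 to 384 in AdAF1 against 411 to 445, the mesothelial list 343 to 461 against 463 to 558, and the Schwann and neural crest list 111 to 121 against 108 to 122. None of these 3 ranges lay above that of the normal arrays. Each of these sums left out a gene already known to be higher, and most remaining members were undetected. Such sums cannot show whether other cell types contributed. The skeletal muscle and mammary epithelium lists, with 0 called genes, were not summed this way. Leukocyte sums were 357 to 390 against 343 to 385, and pericyte sums 357 to 429 against 314 to 432. Of 11 leukocyte genes 0 were detected in either group, and of 8 pericyte genes 2 in AdAF1 and 3 in the normal lines. The defining markers Pecam1, Msln, Myod1, Ptprc and Rgs5 were at background in both groups, and Epcam and Sox10 were not analysed here. The part of other cell types in the differences was not tested.

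With lines in place of cultures as replicates, 0 of 10453 probes passed an adjusted p of 0.05 between adenoma and normal in limma. This fit takes the spread from the 2 normal and 4 carcinoma lines and assumes that the lone adenoma line varies like them. Taken without adjustment, 422 probes (4.04%) had a p under 0.05, 222 of them higher (2.12%) and 200 lower (1.91%). Saa3 had an unadjusted p of 0.0686 there, with an SE of 3.13 for its difference of 6.74, and its line means ranged from 5.58 to 13.98 among the carcinoma lines. Igfbp2 reached an unadjusted p of 0.00815, Greb1 of 0.0134 and Lrrc15 of 0.0245. The calls above therefore describe AdAF1 against 2 lines, and they are not shown to hold for adenoma fibroblasts as a stage.

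Among the lesion lines, AdAF1 differed at the fewest probes from CAF1, in contrasts that hold no normal array. In limma, 27 probes (0.258%) differed between AdAF1 and CAF1, 479 (4.58%) from CAF4, 548 (5.24%) from CAF3, 797 (7.62%) from HpAF1 and 830 (7.94%) from CAF2. Against the normal lines there were 191 (1.83%) for NF2 and 396 (3.79%) for NF3, and NF2 and NF3 differed at 15 (0.143%). Of the 84 higher genes, which were chosen on the AdAF1 arrays that these contrasts also use, 2 were also higher in AdAF1 than in CAF1 (background 0.134% of genes tested) and 1 was lower (0.188%). Those also higher numbered 46 against HpAF1 (4.24%), where 4 were lower, 64 against CAF2 (4.41%), 54 against CAF3 (3.25%) and 59 against CAF4 (2.87%). Of the 22 lower genes, 0 were also lower than in CAF1, 6 than in HpAF1 (3.62%), 10 than in CAF2 (3.84%), 12 than in CAF3 (2.4%) and 12 than in CAF4 (1.84%).

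Gene by gene, levels over the lines followed several patterns. Saa3 stood at 13.98 in AdAF1, 13.98 in CAF1 and 14.00 in HpAF1, with differences of AdAF1 from them of -0.01 and -0.02 that did not pass (adjusted p = 0.999 and 0.993), and at 5.58 to 7.01 in CAF2, CAF3 and CAF4, each lower (adjusted p up to 0.00114). Cxcl10 reached 8.06 in CAF1 but 5.58 in HpAF1, and Lrrc15 reached 10.15 in CAF1, 8.16 in CAF4 and 7.59 in CAF3 but 5.01 in HpAF1. Igfbp2 was highest in AdAF1 at 12.15, followed by 8.92 in CAF1, 7.07 in NF2 and 5.59 in HpAF1. It was called higher in AdAF1 than in every other line except CAF1, where it missed the threshold (difference 3.23, adjusted p = 0.0534). Genes apart from all 7 lines numbered 0 in limma, and 15 probes above and 7 below them differed at an unadjusted p under 0.05 in every contrast. Il1rn, low in AdAF1, stood at 4.92 in CAF1 and 5.30 in HpAF1 and at 7.02 to 9.52 in the other carcinoma lines.

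**Figure D4:**
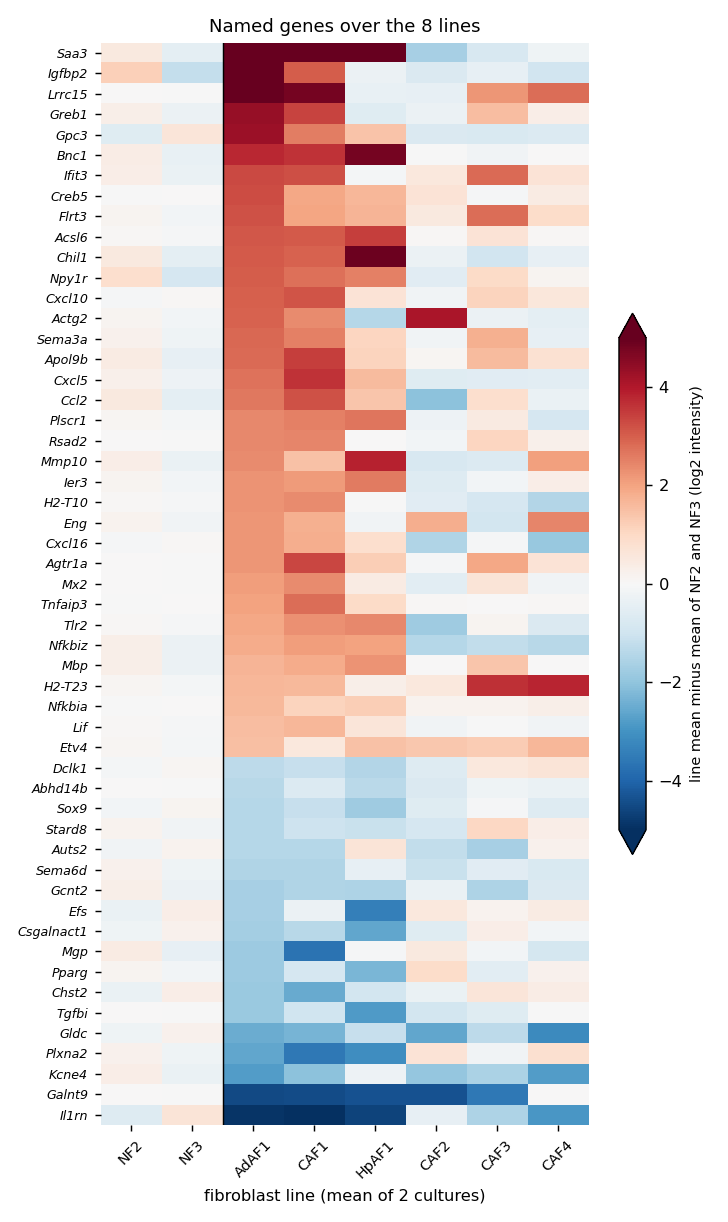
Line mean minus the mean of NF2 and NF3 in normalized log2 intensity for the named genes called in AdAF1, over the 8 lines with the normal lines to the left of the black line; red is above and blue below the normal mean, and the colour scale ends at 5 in each direction. The CAF1 column resembles the AdAF1 column for most genes, the HpAF1 column does so in Saa3, Bnc1, Chil1 and Il1rn but not in Igfbp2, Lrrc15 or Rsad2.

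By position in the genome, genes of chromosome 12 stood out on the higher side. Of its 237 tested genes, 25.7% had both AdAF1 arrays above all 4 normal arrays and 3.8% had both below (11.6% and 11.1% over all genes), and their median difference was 0.196. The shift was present in each of 3 equal parts of the chromosome by gene order, with medians of 0.212, 0.2 and 0.152, and in both cultures, at 0.233 and 0.176. It was also positive against each of the other lines, from 0.034 against CAF2 to 0.333 against CAF1, and was 0.143 against NF2 and 0.23 against NF3. Among its 6 called genes were Greb1 and Rsad2. Chromosome 7, which holds Saa3, followed with 18.5% above among 561 genes and a median of 0.112, and chromosome 13 had the highest share below, 18.7% of 257 genes, with a median of -0.142. These shares carry no test, and chromosomes were chosen after their values were seen.

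**Figure D5:**
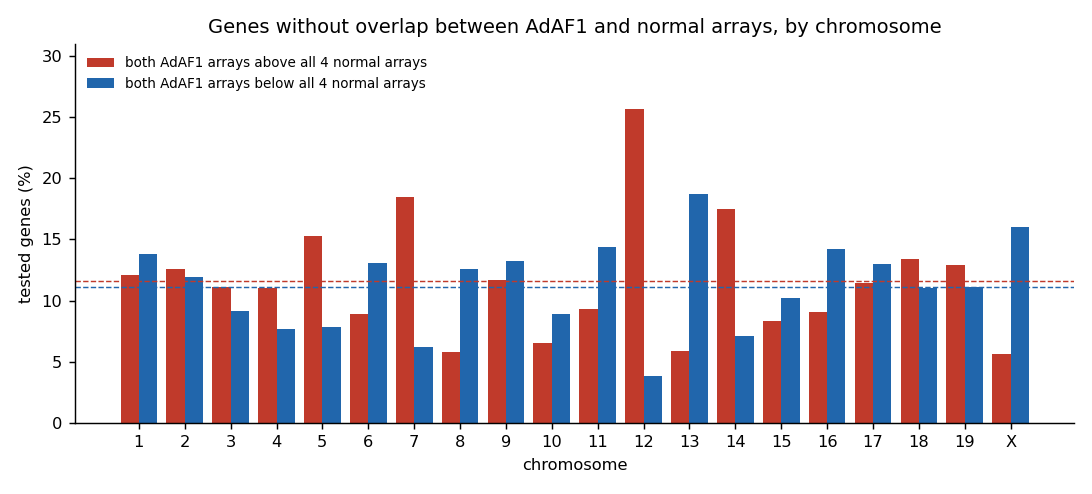
Share of tested genes per chromosome, in percent, whose 2 AdAF1 arrays lay above (red) or below (blue) all 4 normal arrays; dashed lines mark the shares over all tested genes (11.6% and 11.1%). Chromosome 12 has the highest red bar at 25.7% and the lowest blue bar at 3.8%.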

How the data were processed

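For each array the authors deposited linear probe intensity, not normalized per the file headers, and each probe's detection p-value, and a second table of normalized intensity. The sources used here name no scanner software. In R 4.3.3, the first table was passed through limma 3.58.1 (neqc, offset 16), which corrected it for background, brought it to common quantiles and took log2; the second was an alternative. Probes with a detection p under 0.01 on at least 2 of 16 arrays were tested, 10453 of 25697 (40.7%), of which 9865 carried 1 gene symbol of the platform annotation and 588 none. The probe with the highest mean stood for its gene. Low intensities are compressed, so differences of dim genes are understated.

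A model with 1 mean per line over all 16 arrays (lmFit, eBayes; residual degrees of freedom 8) gave AdAF1 minus each other line, two-sided, with Benjamini-Hochberg adjustment over all tested probes and a threshold of 0.05. A second model used the 8 line means. Where a whole group was undetected, folds are bounds. Named genes were, per direction, the 12 called and detected in both groups with the largest difference from the nearer normal line, the 6 called with the largest bound, up to 4 called members per list, and a fixed set of 24 genes. A rule for genes apart from all 7 lines named none. The comparison, the 41 lists (795 genes, 487 tested) and these genes were chosen with earlier results of these data known. Alternatives changed the normalization, offset, filter, threshold, arrays in the fit and replicate block.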

Additional observations from a re-analysis of the deposited data

Results flagged for a closer look

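In 5 of 73 named genes, 1 normal array lay far from the other 3 by Dixon's criterion; by chance about 1 in 20 groups of 4 would do so. For Gpc3, culture 2 of NF3 read 7.58 against 4.81 to 5.04. For Apol9b, culture 1 of NF2 read 6.73 against 5.18 to 5.43. For Flrt3, culture 2 of NF2 read 5.85 against 5.16 to 5.25, all undetected. For Ankrd1, culture 2 of NF3 read 6.46 against 10.17 to 10.64. For Dkk3, culture 1 of NF3 read 6.93 against 8.72 to 8.86.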

How the results depend on the processing

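Probes above both normal lines numbered 105 and those below 32. They were 62 and 17 with scaling in place of quantile normalization, 11 and 1 with only the 6 arrays in the fit, and 45 and 7 at an adjusted p of 0.01. Leaving out 1 culture gave 44 to 131 above and 5 to 55 below. The share of calls that were higher was 76.6%, and 91.7% with only the 6 arrays. With the authors' normalized values 110 of the 137 calls were kept, and with an offset of 50, 123. Of the 53 called genes given by the naming rule, 48 kept their call with the authors' values, 51 with an offset of 50, 38 with scaling, 35 without the detection filter and 7 with only the 6 arrays, and none of the 53 changed sign there. Probes apart from all 7 other lines were 3 with the authors' values, 2 with scaling, 3 with the larger offset and 3 without the detection filter. Against HpAF1 and CAF2, scaling gave 392 and 496 probes, and against CAF1 a filter of 4 arrays gave 14. Over lines, no alternative passed a probe (lowest adjusted p 0.103, without CAF1). Of the named genes, Col1a1 ranged from -0.10 (without NF2 culture 2; -0.08 without AdAF1 culture 2) to 0.66 with 1 culture left out, and Pdgfrb from -0.51 to 0.06 (without NF3 culture 2); neither was called. The labels do not say what the culture numbers share, and same-numbered cultures did not deviate together in every pair of lines. The correlation of culture 1 minus culture 2 was -0.072 between AdAF1 and NF2, -0.04 between AdAF1 and NF3 and 0.236 between NF2 and NF3, and over all pairs of lines it ran from -0.202 (AdAF1 and CAF3) to 0.653 (CAF2 and CAF4). With the culture number as a replicate block, 122 probes were above and 42 below, and 136 of the 137 calls were kept. Causes of these changes were not tested. Weak signals near background limit the dim genes.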
